A study of Mus musculus with 4 samples.

Results

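The enzymes that build and rework glycerolipids and phospholipids were followed in mouse macrophages. They were taken by symbol: every gene name that begins with Agpat, Lpcat, Dgat, Lpin, Pnpla, Pla2g, Lpgat, Mboat or Acsl and a digit. This gave 56 of the 23259 genes with a value. These families were picked with earlier results of these data known. The RNA came from macrophages grown from the bone marrow of 7-week-old C57BL/6 mice and given IL-4, a cytokine of alternative activation, for 24 h. There were 2 libraries with the genotype label wild type and 2 with the label Sema6D-/-, in which the gene for the semaphorin Sema6D is disrupted on both chromosomes; all 4 carried the IL-4 treatment and none was untreated. The labels do not describe the disrupted allele, and they do not say whether replicates were separate mice or cultures, so each p-value measures the spread between these libraries only, which may be technical.

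A glycerolipid is built on glycerol 3-phosphate. Acyl-CoA synthetases (Acsl) first join a fatty acid to coenzyme A; acyltransferases (Agpat, Lpcat, Lpgat, Mboat) then place it on a lysophospholipid; lipins (Lpin) take the phosphate off phosphatidic acid; and the Dgat enzymes add the last acyl chain of triacylglycerol. Patatin-like lipases (Pnpla) and phospholipases A2 (Pla2g) remove the chains again. The cycle of removal and replacement sets which fatty acids a membrane holds, and in macrophages it also sets the supply of arachidonic acid and of platelet-activating factor, a lipid mediator.

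Values are FPKM, fragments per kilobase of transcript scaled to library size. Levels are set side by side between genes with a limit. Gapdh was listed at or near 0, and how multiply mapped reads were treated is not given, so some levels may be too low. A gene was tested if its mean over the 4 libraries was at least 1 FPKM. The test was limma on log2(FPKM + 1) over all 10115 such genes, with Benjamini-Hochberg adjustment, and a gene is said to have risen or fallen where the adjusted p was under 0.05. Differences are Sema6D-/- minus wild type on that scale, with their standard error (SE), and they understate the change of genes near 1 FPKM. The first letter of the titles is K for the libraries labelled wild type but W for those labelled Sema6D-/-, and Sema6d itself was at 0.166 and 0.389 against 0.106 and 0.315 FPKM, values that overlap and do not check the genotype. Every direction is therefore that of the libraries as labelled. Depth, estimated from low values in a fixed window, was about 8300000 to 9300000 fragments a library. In bulk RNA, fewer cells of a type and less RNA per cell cannot be told apart.

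Of the 56 enzymes, 33 passed the filter, and 3 of these rose and 3 fell. The acyltransferase genes Lpcat2 and Lpcat4 were 2.14-fold and 2.18-fold lower in mean FPKM, and the arachidonate-preferring synthetase gene Acsl4 fell by 16.2%. The triacylglycerol lipase gene Pnpla2, the lysosomal phospholipase gene Pla2g15 and the acyltransferase gene Agpat3 rose by 35.8%, 37.6% and 34.4%. The called share of the tested enzymes was 18.2%, beside 9.72% of all genes tested. Since the families were not picked blind to these data, called shares describe the list only. By direction, the background was 4.8% of genes higher and 4.91% lower. The median difference was -0.05 over the 33 enzymes, with 15 above and 18 below 0, and 0.00287 over all genes. In 20 of the 33 the libraries of the labels did not overlap, which was so for 56.2% of all genes tested. The plot of the 6 genes by library shows the separate points.

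**Figure D1:**
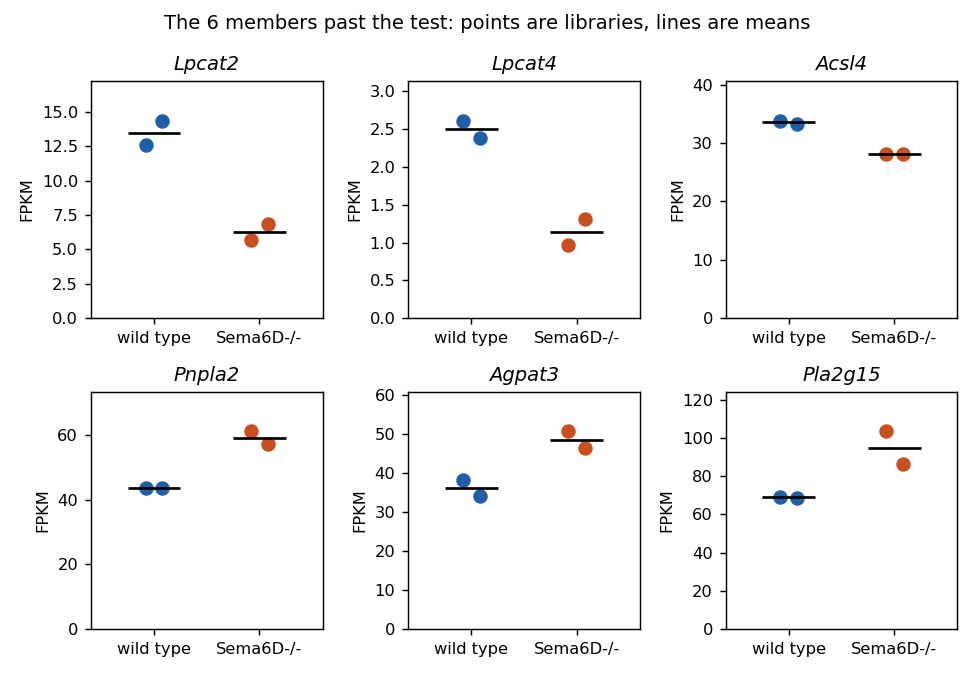
FPKM (linear axis from 0) of the 6 enzymes past the test in the libraries labelled wild type (blue) and Sema6D-/- (orange); points are the libraries in order of replicate number and lines are means of n = 2. Lpcat2, Lpcat4 and Acsl4 are lower in both Sema6D-/- libraries, and Pnpla2, Agpat3 and Pla2g15 are higher in both.

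The start regions of these 6 genes are printed because they are those of the enzymes that passed the test. Each runs from 250 bases before to 50 bases after an annotated start, 5′ to 3′ on the gene's strand, from RefSeq on GRCm38.p6, the assembly that mm10 names. Capitals mark GC boxes, the letters GGGCGG on either strand (CCGCCC when read on the printed one), a motif bound by Sp1 and related factors.
Lpcat2, chr8:92855083-92855382, plus strand: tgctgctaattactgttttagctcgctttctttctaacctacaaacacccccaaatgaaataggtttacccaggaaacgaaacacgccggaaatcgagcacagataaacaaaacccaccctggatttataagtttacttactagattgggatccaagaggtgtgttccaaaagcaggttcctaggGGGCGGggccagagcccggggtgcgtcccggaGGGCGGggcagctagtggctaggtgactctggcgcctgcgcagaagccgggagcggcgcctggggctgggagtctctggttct
Lpcat4, chr2:112239591-112239890, plus strand: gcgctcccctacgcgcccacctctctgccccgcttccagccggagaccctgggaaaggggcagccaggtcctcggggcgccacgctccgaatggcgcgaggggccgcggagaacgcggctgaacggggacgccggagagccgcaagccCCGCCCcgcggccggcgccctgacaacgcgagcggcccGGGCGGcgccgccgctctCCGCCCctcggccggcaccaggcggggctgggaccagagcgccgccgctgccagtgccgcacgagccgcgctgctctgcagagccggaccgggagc
Acsl4, chrX:142390486-142390785, minus strand: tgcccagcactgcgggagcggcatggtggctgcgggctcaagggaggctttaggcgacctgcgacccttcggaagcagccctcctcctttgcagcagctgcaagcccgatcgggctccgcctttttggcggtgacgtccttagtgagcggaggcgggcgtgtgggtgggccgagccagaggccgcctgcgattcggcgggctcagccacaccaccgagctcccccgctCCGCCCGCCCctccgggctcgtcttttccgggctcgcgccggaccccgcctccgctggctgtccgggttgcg
Pnpla2, chr7:141454938-141455237, plus strand: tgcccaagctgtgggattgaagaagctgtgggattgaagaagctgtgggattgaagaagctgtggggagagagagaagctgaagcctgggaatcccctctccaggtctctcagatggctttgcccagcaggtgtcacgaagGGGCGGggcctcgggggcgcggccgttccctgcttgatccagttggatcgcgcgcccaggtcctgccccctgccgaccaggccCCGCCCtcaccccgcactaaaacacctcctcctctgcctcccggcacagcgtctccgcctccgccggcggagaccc
Pla2g15, chr8:106150104-106150403, plus strand: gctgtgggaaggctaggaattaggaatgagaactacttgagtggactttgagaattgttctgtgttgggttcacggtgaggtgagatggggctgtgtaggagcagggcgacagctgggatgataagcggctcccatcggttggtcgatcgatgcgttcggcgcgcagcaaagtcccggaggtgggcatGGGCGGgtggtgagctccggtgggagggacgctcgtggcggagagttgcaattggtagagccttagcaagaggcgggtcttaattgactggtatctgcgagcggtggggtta
Agpat3, chr10:78351651-78351950, minus strand: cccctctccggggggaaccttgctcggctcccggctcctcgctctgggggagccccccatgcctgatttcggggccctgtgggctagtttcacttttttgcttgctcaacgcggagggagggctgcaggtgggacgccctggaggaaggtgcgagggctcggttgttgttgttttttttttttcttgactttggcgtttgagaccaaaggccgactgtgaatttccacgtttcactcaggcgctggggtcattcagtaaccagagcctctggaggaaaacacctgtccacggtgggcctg
The GC box was found in 5 of the 6, with 3 matches at Lpcat4, 2 at Lpcat2 and at Pnpla2, 2 that overlap each other at Acsl4, and 1 at Pla2g15. It was found in 20 of the 29 tested enzymes whose start region the table holds, and in 38.2% of the 27025 genes kept. The start regions of 1 chromosome, which holds none of the enzymes, were left out of the table. GC content ranged from 54.7% at Lpcat2 to 79.0% at Lpcat4, against a median of 52.7% over all start regions kept.

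Another 5 motifs were searched on both strands of the same windows, where a gene with several starts counted once. They were the site of STAT6, the factor that IL-4 activates (TTC and GAA with any 4 bases between), AGGTCA, the half-site of PPARγ and other nuclear receptors, CACGTG, an E-box, the interferon response element (GAAA, any 2 bases, GAAA), and TGATGNAA, an ATF4 element. Their letters occur in none of the 6 windows printed. Among the 48 enzymes in the table, the STAT6 letters were found at 3 (Lpin1, Mboat1 and Pla2g4d), where 8.01% of all genes kept have it. AGGTCA was found at 8, among them Agpat1, Lpin1 and Pla2g4a, against 18.1% of all genes kept. CACGTG was found at 5 against 8.09%, TGATGNAA at 2 (Lpin2 and Pla2g2d) against 4.51%, and the interferon element at Pla2g6 alone against 3.99%. A match of letters is a description of the window, and its absence says nothing about a factor.

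The acyltransferases were 15 of the tested enzymes, and 1 rose and 2 fell, with a median difference of -0.12. Their called share was 20%, beside 9.72% of all genes tested. The largest difference of all 33 was that of Lpcat2, which encodes a lysophosphatidylcholine acyltransferase of inflammatory cells that also acetylates lyso-platelet-activating factor. Lpcat2 was at 12.6 and 14.4 FPKM in the wild-type libraries and at 5.69 and 6.88 in the Sema6D-/- libraries. Both Sema6D-/- values lay below both wild-type values, by 2.14-fold in the means (13.5 ± 1.27 against 6.28 ± 0.843, SD, n = 2; difference -0.99 ± 0.11 SE, adjusted p = 0.00931). The call was lost without Sema6D-/- replicate 1 (adjusted p = 0.076, difference -0.87).

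Lpcat4, whose product acylates lysophosphatidylethanolamine and lysophosphatidylcholine, was at 2.61 and 2.38 against 0.974 and 1.32 FPKM. The libraries of the labels did not overlap, and the mean was 2.18-fold lower under Sema6D-/- (difference -0.71 ± 0.14 SE, adjusted p = 0.0391). The gene is weakly expressed: by the depth estimate these values rest on at most about 54, 50, 18 and 26 fragments. Leaving out any 1 library ended the call, with adjusted p up to 0.158.

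The other lysophosphatidylcholine acyltransferases did not pass. Lpcat3, which places polyunsaturated chains on phosphatidylcholine, was at 22.2 and 21.4 against 20.5 and 19.6 FPKM (difference -0.12 ± 0.06 SE, adjusted p = 0.303), without overlap of the libraries. Lpcat1, which makes disaturated phosphatidylcholine, was at 23.3 and 19.6 against 17.6 and 20.0 FPKM (adjusted p = 0.369), with overlap. Among the 4 tested Lpcat genes all differences were below 0, from -0.99 to -0.12. The fifth, Lpcat2b, was listed at 0 in every library.

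Of the genes that make phosphatidic acid, 1 passed, and it rose. Agpat3, a lysophosphatidic acid acyltransferase, was at 38.2 and 34.0 against 50.6 and 46.3 FPKM. The lowest Sema6D-/- value was above the highest wild-type value, and the mean was 1.34-fold higher (difference 0.42 ± 0.08 SE, adjusted p = 0.0326). It passed with wild type replicate 1 left out, and did not with any other library left out (adjusted p up to 0.201). Agpat1, a further enzyme of this step, lay just outside the threshold. It was at 41.6 and 39.4 against 48.2 and 47.6 FPKM, without overlap (difference 0.24 ± 0.05 SE, adjusted p = 0.0505).

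The remaining Agpat genes had smaller differences. Agpat2, whose loss causes lipodystrophy, was at 34.4 and 28.8 against 26.6 and 31.2 FPKM, with overlap (adjusted p = 0.565). Agpat4 was at 14.3 and 13.8 against 12.5 and 12.8 FPKM (adjusted p = 0.249), and Agpat5 was between 10.3 and 11.4 FPKM in all 4 libraries. Agpat6, now named Gpat4, makes lysophosphatidic acid at the first step and was between 19.7 and 21.8 FPKM in all 4 (difference 0.01 ± 0.07 SE). Agpat9, now Gpat3, which catalyses the same step, was under the filter, at 0.0377 and 0.184 against 0.0824 and 0.159 FPKM.

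Of the enzymes that close triacylglycerol synthesis, Dgat1 was the more abundant. It was at 7.15 and 6.99 against 9.03 and 6.93 FPKM, and the higher mean under Sema6D-/- came from replicate 1 (adjusted p = 0.545). Dgat2 was at 2.22 and 1.15 against 0.485 and 0.571 FPKM. Its libraries did not overlap, but the wild-type libraries lay far apart (SD 0.75) and the gene did not pass (difference -0.79 ± 0.22 SE, adjusted p = 0.0984). These values rest on at most about 45, 24, 9 and 11 fragments. Without wild type replicate 2 it passed (difference -1.07, adjusted p = 0.041). Dgat2l6 was listed at 0 throughout.

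The membrane-bound acyltransferases of lysophospholipids ranged widely in level. Mboat7, which returns arachidonate to lysophosphatidylinositol, was at 21.4 and 21.2 against 21.5 and 22.8 FPKM, just without overlap (difference 0.05 ± 0.06 SE, adjusted p = 0.648). Mboat1, which acts on lysophosphatidylethanolamine and lysophosphatidylserine, was at 1.43 and 1.32 against 0.823 and 0.794 FPKM, without overlap (adjusted p = 0.153). Mboat2 was just under the filter, at 1.33 and 1.10 against 0.441 and 0.978 FPKM. Lpgat1, an acyltransferase of lysophosphatidylglycerol, was between 10.2 and 12.4 FPKM with overlap (adjusted p = 0.668). Mboat4 encodes the acyltransferase of the hormone ghrelin, and was matched by its symbol alone. It was listed at 0 in both wild-type libraries and at 0.0674 and 0.0651 FPKM in the others, about 1 fragment each.

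**Figure D2:**
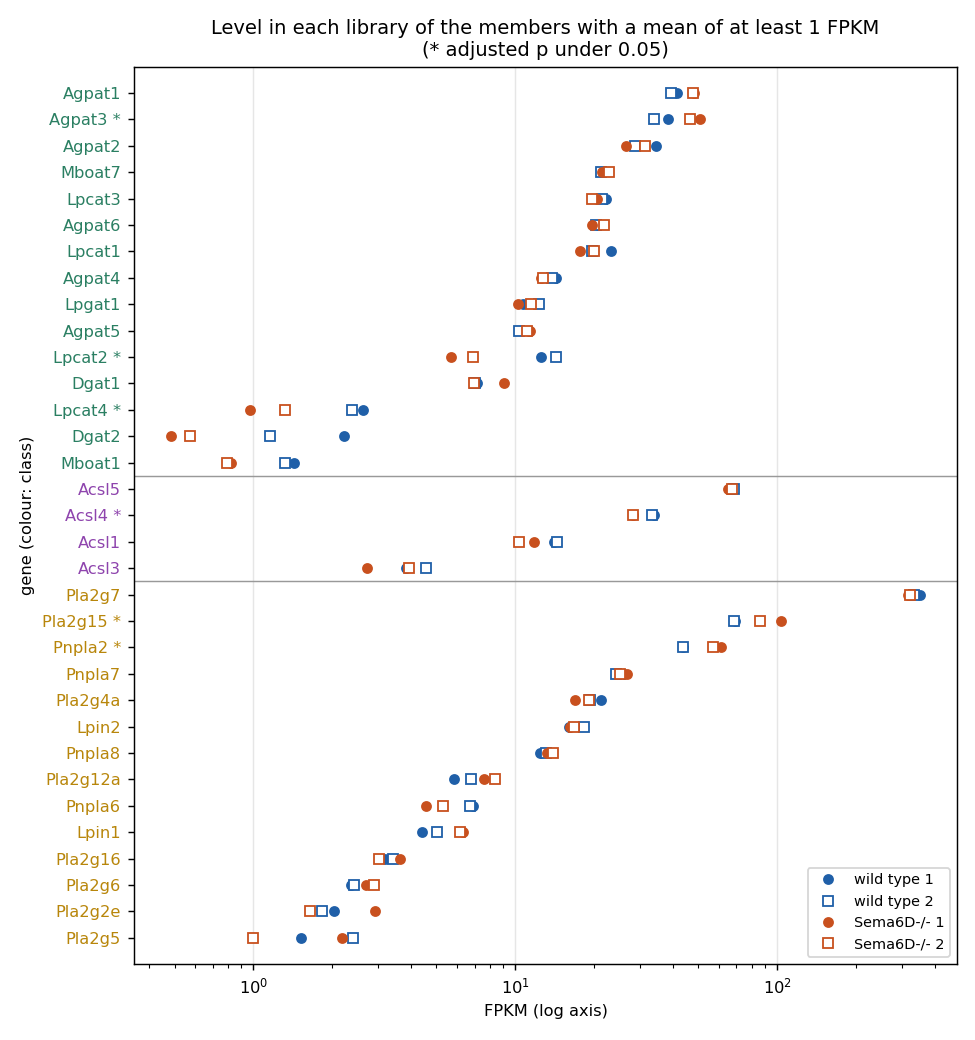
FPKM (log axis) of the 33 tested enzymes in each library, ordered by mean level within acyl transfer (green names), activation (purple) and phosphatase and lipase genes (ochre). Blue marks are wild type, orange Sema6D-/-, circles replicate 1 and open squares replicate 2, and an asterisk marks an adjusted p under 0.05. Means run from 1.09 FPKM (Mboat1) to 331 FPKM (Pla2g7).

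Activation of fatty acids was measured by 4 tested Acsl genes, of which 1 fell and none rose. Their called share was 25%, beside 9.72% of all genes tested. Acsl4, whose product prefers arachidonic acid and which is known for making cells sensitive to ferroptosis, was at 33.8 and 33.2 against 28.1 and 28.0 FPKM. The libraries of each label lay close together and the labels were apart (difference -0.25 ± 0.05 SE, adjusted p = 0.041). Leaving out any 1 library ended the call, with adjusted p up to 0.202, while the difference stayed between -0.26 and -0.23. The gene is X-linked, at chrX:142317993-142390802 in mm10.

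Acsl5 had the highest level of the synthetases, 67.1 and 68.3 against 65.1 and 67.5 FPKM, with overlap (difference -0.03 ± 0.05 SE, adjusted p = 0.732). Acsl1, a synthetase that macrophages raise on inflammatory stimulation, was at 14.0 and 14.5 against 11.8 and 10.3 FPKM. Its libraries did not overlap, and it did not pass (difference -0.34 ± 0.08 SE, adjusted p = 0.0644). Acsl3, found on lipid droplets and the endoplasmic reticulum, was at 3.82 and 4.54 against 2.71 and 3.93 FPKM (adjusted p = 0.38). All 4 differences were below 0, with a median of -0.26. Acsl6, known from brain and red cells, was listed at 0 in every library.

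The phosphatase and lipase genes held 14 tested enzymes, of which 2 rose and none fell, with a median difference of 0.06. Their called share was 14.3%, beside 9.72% of all genes tested. Pnpla2 encodes adipose triglyceride lipase, which takes the first chain off triacylglycerol in lipid droplets. It was at 43.6 and 43.5 against 61.1 and 57.2 FPKM. The wild-type libraries were nearly equal, both Sema6D-/- libraries were above them, and the mean was 1.36-fold higher (43.6 ± 0.0355 against 59.2 ± 2.82, SD, n = 2; difference 0.43 ± 0.05 SE, adjusted p = 0.0113). The call was lost without Sema6D-/- replicate 1 (adjusted p = 0.0927) or replicate 2 (0.0505).

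Pla2g15 encodes the phospholipase A2 of lysosomes. It was at 69.3 and 68.7 against 103.6 and 86.3 FPKM, so that both Sema6D-/- libraries were higher but differed from each other far more than the wild-type pair. The mean was 1.38-fold higher (69.0 ± 0.379 against 94.9 ± 12.3, SD, n = 2; difference 0.45 ± 0.09 SE, adjusted p = 0.0397). The call was lost without either wild-type library or Sema6D-/- replicate 1, with adjusted p up to 0.114, and kept without Sema6D-/- replicate 2 (adjusted p = 0.0333, difference 0.58).

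Pla2g7, the secreted platelet-activating factor acetylhydrolase of macrophages, had the highest level of all the enzymes. It was at 352 and 334 against 315 and 322 FPKM, without overlap, and did not pass (difference -0.10 ± 0.05 SE, adjusted p = 0.242). The next highest enzyme, Pla2g15, had a mean of 82.0 FPKM. Pla2g4a, the cytosolic phospholipase A2 that frees arachidonic acid, was at 21.4 and 19.3 against 16.8 and 19.1 FPKM (adjusted p = 0.297). Among the calcium-independent enzymes, Pla2g6 was at 2.36 and 2.41 against 2.70 and 2.88 FPKM (adjusted p = 0.419). Pnpla8, which acts in mitochondria and peroxisomes, was at 12.4 and 13.1 against 13.3 and 14.0 (adjusted p = 0.503).

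Other lipases and phosphatases did not pass. Pnpla6, the neuropathy target esterase, was at 6.87 and 6.74 against 4.58 and 5.32 FPKM, without overlap (difference -0.40 ± 0.10 SE, adjusted p = 0.0686). Its relative Pnpla7, also a lysophospholipase, was between 24.3 and 26.7 FPKM with overlap (adjusted p = 0.755). Lpin1, a phosphatidate phosphatase that also acts as a coactivator of transcription, was at 4.41 and 5.01 against 6.33 and 6.16 FPKM, without overlap (difference 0.35 ± 0.09 SE, adjusted p = 0.09). Lpin2, the more abundant lipin here, was between 16.1 and 18.3 FPKM (adjusted p = 0.738), and Lpin3 was listed at 0 except for 0.0308 FPKM in wild type replicate 2. Pla2g16, now Plaat3, was between 3.01 and 3.62 FPKM (adjusted p = 0.994).

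Apart from Pla2g7, the tested genes of secreted phospholipases A2 were Pla2g12a, Pla2g5 and Pla2g2e, none above 8.34 FPKM in any library. Pla2g12a was at 5.81 and 6.77 against 7.59 and 8.34 FPKM, without overlap (adjusted p = 0.145). Pla2g5 was at 1.52 and 2.40 against 2.17 and 0.992 FPKM and Pla2g2e at 2.03 and 1.83 against 2.91 and 1.65, both with overlap. These lie in a cluster of 6 Pla2g genes at chr4:138725325-138882817 in mm10. Of the other 4 genes there, Pla2g2c and Pla2g2f were listed at 0, Pla2g2d was between 0.0489 and 0.0956 FPKM, and Pla2g2a, a transcribed pseudogene in the RefSeq annotation, was at 0.194 FPKM in 1 library.

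The remaining enzymes were at or near 0. In all, 23 of the 56 were under the filter, and 15 of them were listed at 0 in every library. Being listed at 0 does not show that a gene was silent, since Gapdh, a glycolytic gene that all cells use, was listed at 0 in 3 libraries and at 0.104 FPKM in the other. The 15 include 3 adjacent group IV enzymes, Pla2g4e, Pla2g4d and Pla2g4f, at chr2:120166412-120314165, and the neighbours Pnpla3 and Pnpla5 at chr15:84112621-84189521. They also include Pnpla1, Pla2g1b, Pla2g3, Pla2g10, Pla2g12b, Pla2g2c, Pla2g2f, Acsl6, Dgat2l6 and Lpcat2b. Pla2g4b was at 0.11 and 0.0808 against 0.181 and 0.233 FPKM, at most about 6 fragments, and Pla2g4c was at 0.0634 and 0.031 FPKM under wild type and listed at 0 under Sema6D-/-. In a fit without the filter, which held 41 of the enzymes, 2 passed, Lpcat2 and Pnpla2, beside 3.44% of all genes in that fit.

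**Figure D3:**
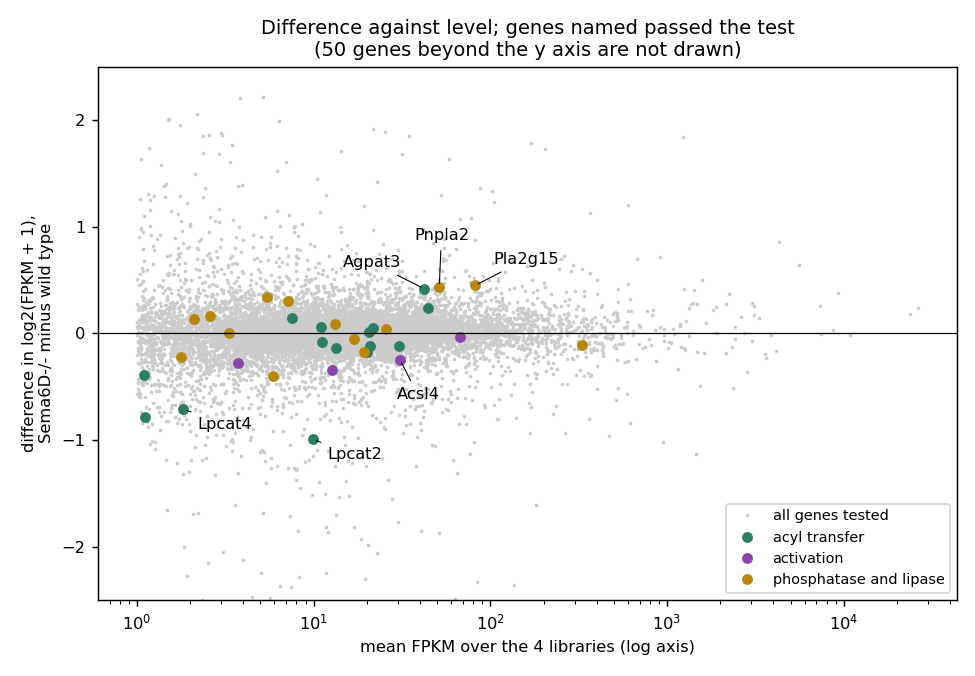
Difference in log2(FPKM + 1), Sema6D-/- minus wild type, against mean FPKM (log axis) for all 10115 genes tested (grey) and the 33 enzymes by class. The 6 enzymes past the test are named; 50 genes lie beyond the vertical axis and are not drawn.

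The direction of each of the 6 calls was the same whichever library was left out, and the calls themselves were not. The plot of the left-out libraries gives the differences. Without wild type replicate 1, 3 of the 33 enzymes passed, without wild type replicate 2 also 3, without Sema6D-/- replicate 2 it was 2, and without Sema6D-/- replicate 1 it was 0 (limma; 159 of 10115 genes passed in that fit, and 10 enzymes had an unadjusted p under 0.05). With eBayes without trend Acsl4, Agpat3 and Pla2g15 did not pass and Mboat1 did (adjusted p = 0.0426), and after quantile normalization Pla2g15 did not. A fit of 3 libraries takes the spread of the lone library from the other label.

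**Figure D4:**
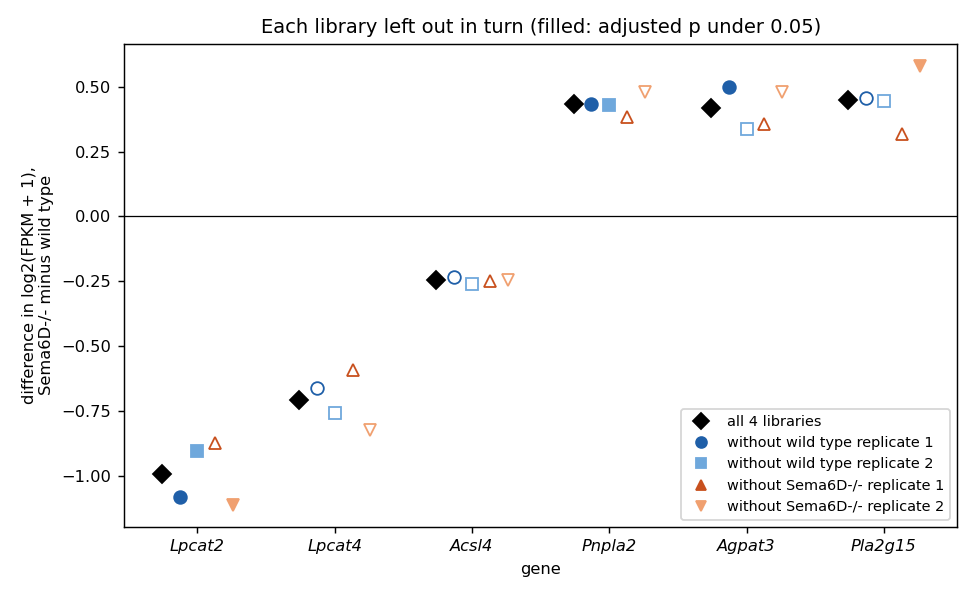
Difference in log2(FPKM + 1), Sema6D-/- minus wild type, of the 6 enzymes with all 4 libraries (black) and with each library left out in turn; filled marks have an adjusted p under 0.05. Lpcat2 stays between -1.11 and -0.87 and Pnpla2 between 0.38 and 0.48.

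Markers of other cells were read in the same libraries. Of 8 macrophage markers all were expressed: Adgre1 (listed as Emr1) rose from 332 ± 9.29 to 470 ± 15.9 FPKM, and Cd14, Itgam and Lyz2 fell. The others did not pass. Csf1r was at 553 ± 11.2 and 515 ± 5.68, and Mertk at 11.6 ± 0.733 and 10.2 ± 1.40. Cd68 was at 1259 ± 93.8 and 1535 ± 22.8 (limma adjusted p = 0.0532), and Fcgr1 at 40.9 ± 3.02 and 33.1 ± 0.284 (limma adjusted p = 0.0518). Of 11 neutrophil markers found, 6 rose (S100a8, S100a9, Ngp, Lcn2, Ltf and Mpo) and Csf3r fell. Camp, Elane and Mmp8 did not pass, and Cxcr2 was under the filter. The summed level of the 11 was 254 to 264 FPKM in the wild-type libraries and 659 to 800 in the Sema6D-/- libraries. Of 6 dendritic cell markers 1 fell, Itgax, with Flt3 and Cd209a at or near 0 and sums of 404 to 410 against 306 to 321 FPKM. These sums are nearly all Itgax, at 402 and 407 against 304 and 320 FPKM. Zbtb46 (0.696 and 0.913 against 0.251 and 0.367) and Xcr1 (0.355 and 0.417 against 0.0777 and 0.075) were under the filter, lower without overlap. Ccr7 was at 0.797 and 1.17 against 1.37 and 1.08 FPKM, with overlap. The basophil gene Mcpt8 rose among 4 mast cell and basophil markers, whose sums were 0.551 to 0.846 against 2.81 to 3.97 FPKM. Mcpt8 and Mpo had wild-type means of 0.238 and 0.916 FPKM, so both passed the filter only through the Sema6D-/- libraries. Of the marker calls, those of Itgam, Itgax, Lcn2 and Mpo ended without either Sema6D-/- library, those of Adgre1 and Mcpt8 without Sema6D-/- replicate 1, and that of Lyz2 without any but wild type replicate 2, with adjusted p up to 0.174. Lyz2 also failed the test in the fit without a filter, in that without trend and after quantile normalization. The adipocyte markers Lep, Cidec and Retn were listed at 0 in every library, Plin1 was at most 0.0642 FPKM, and Adipoq was listed at 0 under wild type and at 0.43 and 0.311 FPKM under Sema6D-/-. Adipor2, the last marker on the adipocyte list, was at 32.4 and 34.3 against 34.7 and 35.9 FPKM and did not pass (limma adjusted p = 0.438). The 6 markers of fibroblasts and marrow stroma summed to 5.76 to 11.1 against 5.38 to 8.05 FPKM, and none of the 3 tested passed. All 5 lymphocyte markers were under the filter, with sums of 0.0819 to 0.256 against 0.613 to 0.891 FPKM, as were all 4 erythroid markers, at most 0.127 FPKM in sum. The part of other cells in the 6 calls was not tested.

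The rest of the pathway was read from a list of 113 further genes of acylation, fatty acid uptake, phospholipid synthesis, lipid droplets and other phospholipases. It too was drawn up with earlier results of these data known. Of these, 80 passed the filter, 9 rose and 4 fell, a share of 16.2% beside 9.72% of all genes tested, with a median difference of 0.05. The fall of Plbd1, a phospholipase B-like gene, was the largest, from 9.91 and 8.07 to 1.06 and 1.14 FPKM (difference -2.24 ± 0.13 SE, adjusted p = 0.00145). It was the only 1 of the 13 calls that held whichever library was left out.

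Lipid droplet and neutral lipase genes had 4 calls, all higher, among 14 tested. The share was 28.6%, where 9.72% of all genes tested were called and 4.8% were called higher. Plin2, the main coat protein of macrophage droplets, was at 545 and 552 against 725 and 649 FPKM, without overlap (adjusted p = 0.0381). Lipa, the acid lipase of lysosomes, was at 1330 and 1364 against 1594 and 1655 FPKM (adjusted p = 0.0297). The serine hydrolase genes Abhd12 and Abhd4 rose 1.32-fold and 1.31-fold. Both partners of Pnpla2 were measured: its activator Abhd5 was between 35.0 and 39.6 FPKM with overlap (adjusted p = 0.73), and its inhibitor G0s2, under the filter, was listed at 0 and at 0.155 against 2.08 and 1.003 FPKM. The later lipases did not pass, with Lipe between 9.63 and 11.0 FPKM and Mgll at 0.513 and 1.48 against 4.57 and 2.97 (difference 1.28 ± 0.29 SE, adjusted p = 0.053). Lpl, the most abundant of this group, was at 2916 ± 122 and 3275 ± 15.0 FPKM (SD, n = 2; limma adjusted p = 0.137). The calls of Plin2, Lipa and Abhd4 ended without any 1 library and that of Abhd12 without any but wild type replicate 2, with adjusted p up to 0.196.

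Some genes that make and break platelet-activating factor can be set side by side, though the selection is not complete. Lpcat2, which makes it, fell as given above. Pafah2, an intracellular hydrolase that degrades it, rose 2.12-fold, from 3.79 and 2.66 to 6.59 and 7.09 FPKM (adjusted p = 0.0235). This call was lost without either Sema6D-/- library (adjusted p up to 0.153). Pafah1b1, Pafah1b2 and Pafah1b3, of the other intracellular form, were at 38.7, 30.4 and 20.7 FPKM under wild type and at 36.3, 31.1 and 21.6 under Sema6D-/-, and none passed. Pla2g7 did not pass either. Nor did Lpcat1, of the same family as Lpcat2 and more abundant (mean 20.1 against 9.88 FPKM, limma adjusted p = 0.369).

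Among 24 tested genes of phospholipid synthesis, 1 rose and 1 fell, a share of 8.33% beside 9.72% of all genes tested. Cds2, which makes CDP-diacylglycerol from phosphatidic acid for the synthesis of phosphatidylinositol and cardiolipin, was at 25.7 and 26.01 against 35.2 and 33.8 FPKM (difference 0.40 ± 0.05 SE, adjusted p = 0.0131). Glycerol kinase, listed as Gyk, fell from 18.3 ± 0.696 to 13.1 ± 0.704 FPKM (adjusted p = 0.02). Cdipt, the phosphatidylinositol synthase with the highest level of this group, was at 60.0 ± 4.49 and 59.8 ± 3.67 FPKM (SD, n = 2; limma adjusted p = 0.983). Both calls ended without either Sema6D-/- library, and that of Gyk also without either wild-type library.

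Uptake, activation and other acylation added 3 calls. The called share was 8.33% for uptake and activation and 22.2% for other acylation, beside 9.72% of all genes tested. Acot7, an acyl-CoA thioesterase that opposes the synthetases, fell from 56.5 ± 2.65 to 43.4 ± 0.611 FPKM, the 1 call among 12 genes of uptake and activation (adjusted p = 0.0171). Dbi, the acyl-CoA-binding protein, was at 354 ± 6.64 and 384 ± 10.8 (adjusted p = 0.197). Of 9 tested genes of other acylation 2 rose from low levels. Soat2, a sterol acyltransferase, was at 0.42 and 0.256 against 1.78 and 1.94 FPKM (adjusted p = 0.0145). With a wild-type mean of 0.338 FPKM, Soat2 entered the test and the 22.2% only through the Sema6D-/- libraries. The wax synthase gene Awat1 was at 1.19 and 1.24 against 2.78 and 2.24 (adjusted p = 0.0432). Soat1, which stores cholesterol ester in macrophages, was at 127 and 133 against 141 and 136 FPKM and did not pass (adjusted p = 0.301). In the group listed as other phospholipases, Pld3 rose 1.19-fold (adjusted p = 0.0356). Ddhd1, a phosphatidic acid-preferring phospholipase A1, fell from 14.2 ± 0.304 to 11.2 ± 0.407 (adjusted p = 0.0473). Pld4, the highest of the group, was at 378 and 373 against 313 and 333 FPKM (adjusted p = 0.0531). Pld3 and Pld4 stand in this group by family name, and their activity was not measured. The calls of Awat1, Pld3 and Ddhd1 ended without any 1 library, those of Soat2 without either Sema6D-/- library and that of Acot7 without these or wild type replicate 1, with adjusted p up to 0.229.

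**Figure D5:**
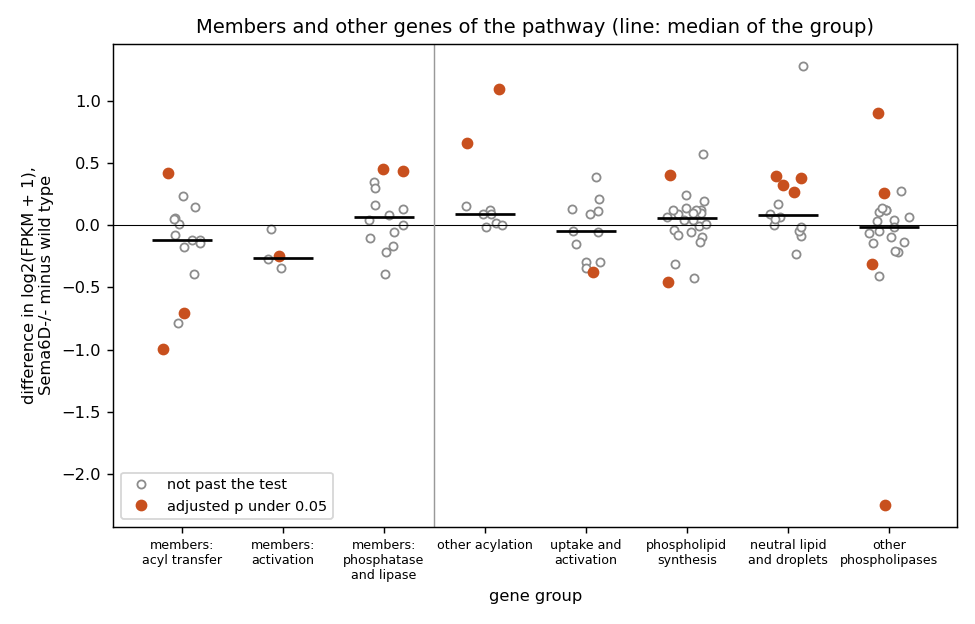
Difference in log2(FPKM + 1), Sema6D-/- minus wild type, of the 33 enzymes in 3 classes (left of the vertical line) and of 80 further pathway genes in 5 groups (right). Points are genes, filled where the adjusted p is under 0.05, and the line is the group's median, which is -0.26 for activation and 0.08 for neutral lipid and droplet genes.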

How the data were processed

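The deposited values are FPKM, which the authors obtained with Cuffnorm 2.2.1, after TopHat2 2.0.13, Bowtie2 2.2.3 and SAMtools 0.1.19 on mm10, per the submitters' processing notes. Libraries were strand-specific (SureSelect), per the labels' protocols. Which gene annotation and strand setting were used, and how multiply mapped reads were treated, is not given in the sources used here.

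Of 23284 symbols, 25 (date-like names) carried no value. Depth was estimated from genes of over 1500 bases with 1 GENCODE transcript. The median of FPKM times length in kilobases, within a fixed window of low values, was taken as 1 fragment. The window bounds the estimate. Libraries were also compared in pairs, over genes above 0 and under 0.1 FPKM in both, with values scaled by each library's estimate. For 90.0% to 93.4% of these genes, by pair, the ratio between the libraries was near a ratio of small whole numbers (tolerance 0.05, log2). The share that unrelated values would reach was not estimated, so this describes the low values and does not check the depth. Fragment numbers use all exons of a gene and are upper estimates at the estimated depth.

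Groups follow the genotype label. limma 3.58.1 in R 4.3.3 (lmFit, eBayes with trend, two-sided) tested log2(FPKM + 1) of the 10115 genes averaging at least 1 FPKM. All the enzymes may be named; further pathway genes are named where they passed or have the highest level of their group, and the others (Mgll, Lipe, Abhd5, G0s2 and the Pafah1b genes) were chosen after their values were seen. The members and lists were chosen with earlier results of these data known. The fit was run on simulated data with normal noise of its own estimated spread. Planted log2 changes of 0.5 were recovered for 84% of genes, and 7 of 198 calls were false. Changes under 0.5 and genes averaging under 5 FPKM, such as Lpcat4, were not covered by the planted changes. Alternatives changed the pseudocount (0.1, 5), the filter (none, or 5 FPKM), the scaling (median-of-ratios, quantile), eBayes (robust, or without trend), added the title number as a block, or left out each library.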

Additional observations from a re-analysis of the deposited data

How the results depend on the processing

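The 6 calls and their directions were the same with pseudocounts of 0.1 and 5 and with median-of-ratios scaling. Without a filter, 2 of 41 enzymes passed, beside 504 of 14653 genes (3.44%). Of the 33 enzymes tested with the filter, 4 passed with eBayes without trend and 9 with robust estimation. The numbers for all 10115 genes were 588 and 1177. With libraries left out, the enzymes called ranged from 0 to 3, the acyltransferases from 0 to 2, activation genes stayed at 0 (limma; 2 to 3 at an unadjusted p under 0.05), the phosphatase and lipase genes ranged from 0 to 1, the further pathway genes from 1 to 7, and all genes from 159 to 546. Without a filter, 1 acyltransferase, 0 activation, 1 phosphatase or lipase and 4 further pathway genes passed. With eBayes without trend these were 3 acyltransferase genes (Lpcat2, Lpcat4 and Mboat1), 0 activation, 1 phosphatase or lipase and 6 further pathway genes; with robust estimation 2 activation genes passed, and after quantile normalization 1 phosphatase or lipase gene. The cause of these changes was not tested. Libraries with the same number in their titles showed no shared shift (correlation of deviations -0.02 over 10115 genes). With 2 libraries a label this is 1 correlation, and it cannot show whether the libraries were prepared as pairs. With the title numbers as a replicate block, 4 of the 33 enzymes passed (0 activation genes), beside 6 of 80 further pathway genes and 637 of 10115 genes in all. Lpcat4 (limma adjusted p = 0.0775) and Acsl4 (0.0858) did not pass in that fit.

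Agpat1 passed with a mean of at least 5 FPKM (adjusted p = 0.0467) or robust estimation (0.0402), and Acsl1 (0.046) and Pnpla6 (0.049) with robust estimation. Differences changed sign with 1 library left out for Agpat2 (-0.247 to 0.00222), Agpat5 (-0.00167 to 0.112), Agpat6 (-0.0556 to 0.0815), Dgat1 (-0.0257 to 0.314), Lpgat1 (-0.175 to 0.0149), Lpin2 (-0.138 to 0.0348), Pla2g16 (-0.100 to 0.104), Pla2g2e (-0.146 to 0.414), Pla2g5 (-0.554 to 0.117), Pnpla7 (-0.0100 to 0.0891), Cdipt (-0.0792 to 0.0712), Abhd5 (-0.128 to 0.0303), Pafah1b2 (-0.0259 to 0.0933) and Pafah1b3 (-0.0481 to 0.174); none of these passed the test. How detection depends on a gene's level was not tested.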
